A study of Mus musculus with 2 samples.

Results

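Marker genes of astrocytes, oligodendrocytes and neurons were read in microglia sorted from mouse spinal cord, to see how much RNA of other neural cells each sorted sample holds. The list has 36 genes chosen by name. A probe belonged to a gene where the gene name on the array was the same symbol in both scanner files, which gave 35 of the 36 genes, with 52 of the 55681 probes and among 34797 gene names. The exception was Map2, which the array lists under its older name and which is described apart. The 2 samples were 1 of microglia from mice of an atopic diathesis model, titled activated, and 1 of microglia from control mice, titled normal. Atopic diathesis is an inherited tendency towards allergic disease. How the model was made, the strain, age and number of mice behind a sample and the sort gate are not given in the sources used here. Total RNA was amplified, labelled and hybridised to 1-colour Agilent mouse arrays, both on 1 slide, so that array position and group cannot be told apart.

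Astrocytes, oligodendrocytes and neurons surround microglia in the spinal cord, and their RNA can enter a sorted sample through attached fragments, engulfed debris, free RNA or stray cells. Astrocytes clear glutamate and potassium and are joined by gap junctions. Oligodendrocytes wrap axons in myelin, and neurons carry the synaptic and cytoskeletal genes on the list. Microglia are a separate lineage of macrophages, so these genes serve as a purity check in their profiles.

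A probe was counted as detected where the extraction software marked it well above background. The lowest signal so marked was 19.9 on the atopic diathesis array and 19.8 on the control array. The mark is set per spot against its own background, so a probe slightly above these values can lack it. Differences are log2 of the atopic diathesis signal minus log2 of the control signal, after each array was scaled by its 75th percentile over the probes detected on both arrays (725 in atopic diathesis and 785 in control). A probe detected on both arrays is called measured, and the median of all 11263 measured probes lay at 0.084. For a probe detected on 1 array only, its fold is a lower limit under this scaling and background treatment. With 1 array per group there is no replicate and no test could be made. The only error is that between repeated spots of a probe. It gave 95% half-widths for a log2 difference of 0.57 for mean signals under 100, 0.29 from 100 to 1000 and 0.15 above 1000, which leave out the spread between mice, sorts and amplifications. The mean is that of both arrays on the log scale. For Cnp and Eno2 below, the control signal was under 100 but the middle range applied, so their half-widths may be too small.

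Marker genes of other neural cells were detected on both arrays, and more of them in atopic diathesis microglia. Of the 35 genes, 20 were detected in atopic diathesis microglia and 14 in control microglia. Over all gene names 34.8% were detected in atopic diathesis and 30.9% in control, and over names with a RefSeq mRNA accession 38% in atopic diathesis and 33% in control. All 14 were among the 20, and 15 genes were detected on neither array. A gene counted as detected on an array where any of its probes was. Mbp, Mobp and Ntsr2 each had a probe detected in control alone, but counted in atopic diathesis through another probe. No single Mobp probe was detected on both arrays. This overlap was not counted over all gene names, so it gives no pattern particular to the markers. Lacking the mark is not the same as lying at background: above the 99th percentile of negative control spots (5.49 in atopic diathesis and 7.19 in control), 32 genes had a probe in atopic diathesis and 22 in control. This cut-off was lower in atopic diathesis, and the share of all gene names above it was not counted, so these counts give no gap particular to the markers. By probe, 21 of 52 (40.4%) were detected in atopic diathesis, where 27.6% of all probes were, and 17 of 52 (32.7%) in control, where 24.1% were. Among probes with a RefSeq mRNA accession, a background chosen after the data were seen, the shares were 34.3% in atopic diathesis and 29.5% in control. Detection on the atopic diathesis array alone held for 7 member probes (13.5%, against 7.4% of all probes and 9.39% of those with such an accession), and on the control array alone for 3 (5.77%, against 3.89% and 4.56%). Fewer cells of a type and less RNA per cell cannot be told apart in such samples.

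**Figure D1:**
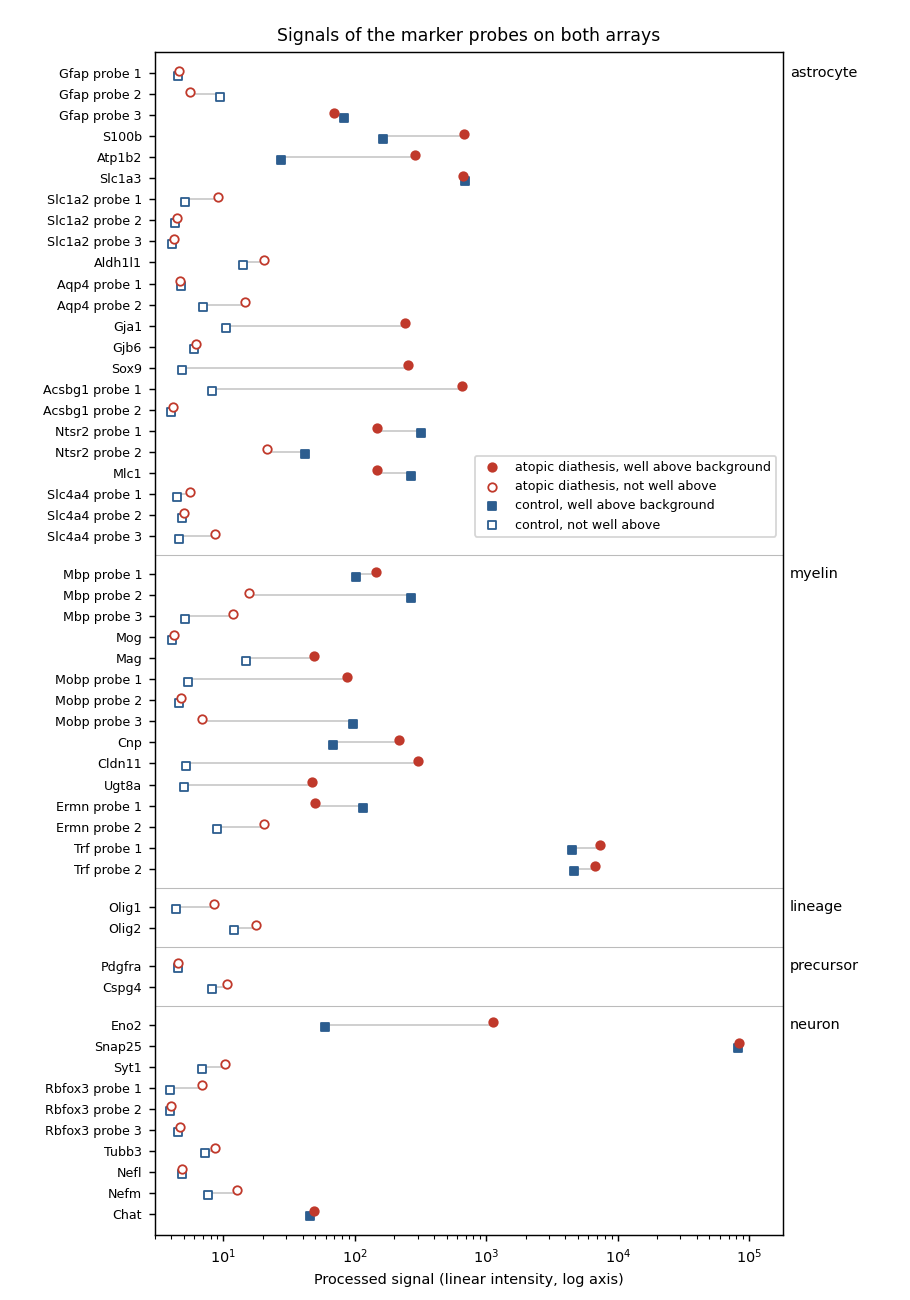
Processed signal of each of the 52 marker probes (linear intensity, log axis) in atopic diathesis microglia (circles) and control microglia (squares), grouped by cell type, filled where well above background. Sox9, Gja1, Acsbg1 probe 1 and Cldn11 are filled on the atopic diathesis array alone, and the Snap25 probe is filled on both, at 84015 in atopic diathesis and 82155 in control.

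Some astrocyte markers read far higher in atopic diathesis microglia, and others were lower there by less than 2-fold. The rest were at like signals in both samples or were detected in neither. Of 14 genes, 9 were detected in atopic diathesis and 6 in control. Acsbg1, an acyl-CoA synthetase, had a signal of 656 in atopic diathesis against 8.16 in control, at least 35.9-fold higher. Sox9, a transcription factor of glial identity, read 253 in atopic diathesis and 4.81 in control, at least 13.9-fold higher. Gja1, which encodes the gap junction protein connexin 43, read 241 in atopic diathesis and 10.4 in control, at least 13.2-fold higher. These 3 probes were not well above background in control microglia, so the folds are lower limits under this background treatment. Atp1b2, a subunit of the sodium pump, read 285 in atopic diathesis and 27.4 in control, a log2 difference of 3.49 ± 0.57 (spot error). With normexp correction it was 2.09, and with no background correction 1.94. S100b, a calcium-binding protein, read 672 in atopic diathesis and 163 in control, a difference of 2.16 ± 0.29. Both differences exceeded 2-fold by more than the spot error.

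The other detected astrocyte genes did not follow. Slc1a3, the glutamate transporter GLAST, read 667 in atopic diathesis and 689 in control, a log2 difference of 0.069 ± 0.29. Gfap, the intermediate filament of astrocytes, was detected by 1 of its 3 probes, at 69.5 in atopic diathesis and 83.3 in control (-0.15 ± 0.57). For these 2 genes the difference lay within the spot error and its sign changed with the processing, in 3 of 8 alternatives for Slc1a3 and 1 of 8 for Gfap. The 8 alternatives were other scalings, other background treatments, the deposited series table and outlier spots kept. They are not 8 separate checks. The series table gave nearly the values of quantile normalization. The only outlier spot of a marker was of Gja1, so keeping outlier spots hardly moved the measured marker probes. The neurotensin receptor gene Ntsr2 read 148 in atopic diathesis and 320 in control on one probe (-0.99 ± 0.29), just inside 2-fold here and past it in 5 of 8 alternatives. Its other probe, at 21.6 in atopic diathesis and 41.8 in control, was detected in control alone, at least 1.79-fold lower. Mlc1, a membrane protein of astrocyte end-feet, read 148 in atopic diathesis and 266 in control (-0.73 ± 0.29), past 2-fold in 1 of 8 alternatives. Both genes were therefore lower in atopic diathesis by more than the spot error but by less than 2-fold.

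Several genes often used to define astrocytes were not well above background in either sample. They were Slc1a2, the glutamate transporter GLT-1, Aldh1l1, a folate enzyme, the water channel gene Aqp4, the connexin gene Gjb6 and the bicarbonate transporter gene Slc4a4. Together with undetected probes of Gfap and Acsbg1, 13 astrocyte probes gave signals of 4.12 to 20.3 in atopic diathesis and 3.98 to 14.1 in control. Over the 6 measured astrocyte probes, 2 were at least 2-fold higher and none lower, with a median difference of -0.039. Without Slc1a3 the median was -0.15.

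The probes behind the higher astrocyte genes are shown because each gene rests on 1 detected probe. All probes are 60 bases long, and 30 bases of each are given 5′ to 3′ as in the deposited files, with mm9 coordinates of the whole probe. Capitals mark the polyadenylation signal AATAAA, which occurs near the 3′ end of many mRNAs. They are Acsbg1 (chr9:54453010-54453069, minus strand), Sox9 (chr11:112648809-112648868, plus), Gja1 (chr10:56109814-56109873, plus), Atp1b2 (chr11:69413253-69413312, minus) and S100b (chr10:75723783-75723842, plus).
Acsbg1: tgacatctccaatgccttcacgtgcaagta
Sox9: ataaaaccttaaagcgttcttataatatgg
Gja1: ctacacattaactcagaacttgtattctga
Atp1b2: agggtaaagtacAATAAActgagagcgatt
S100b: gaagctggacttgaggctttctaacttgca
None of these 5 probes shares a stretch of 20 bases with a probe of another gene name. A second Acsbg1 probe (chr9:54494061-54494120, minus) was detected on neither array, at 4.12 in atopic diathesis and 3.98 in control.
Acsbg1 second probe: agaagtgcttcttctcaggtctgccagctc

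Gja1 and Sox9 are printed 10 times per array, so their readings do not rest on 1 spot. On the atopic diathesis array the 9 usable Gja1 spots ran from 222 to 263 with a median of 244, and 1 further spot was marked as an outlier. On the control array the 10 Gja1 spots ran from 6.29 to 15.8 with a median of 10.9. The 10 Sox9 spots ran from 237 to 275 in atopic diathesis, median 252, and from 3.93 to 10.2 in control, median 4.43. For both genes the spots of the 2 arrays did not overlap, and all usable spots were well above background in atopic diathesis and none in control. How many other probes printed 10 times also lacked overlap was not counted. Spots of 1 array share 1 sample, so they do not show the spread between mice. The neurofilament gene Nefm and the precursor gene Pdgfra are also printed 10 times. Nefm spots ran from 6.29 to 19.3 in atopic diathesis and from 4.54 to 12.4 in control, and Pdgfra spots from 4.02 to 5.02 in atopic diathesis and from 3.95 to 5.14 in control, with no spot well above background. Their spots overlapped between the arrays.

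**Figure D2:**
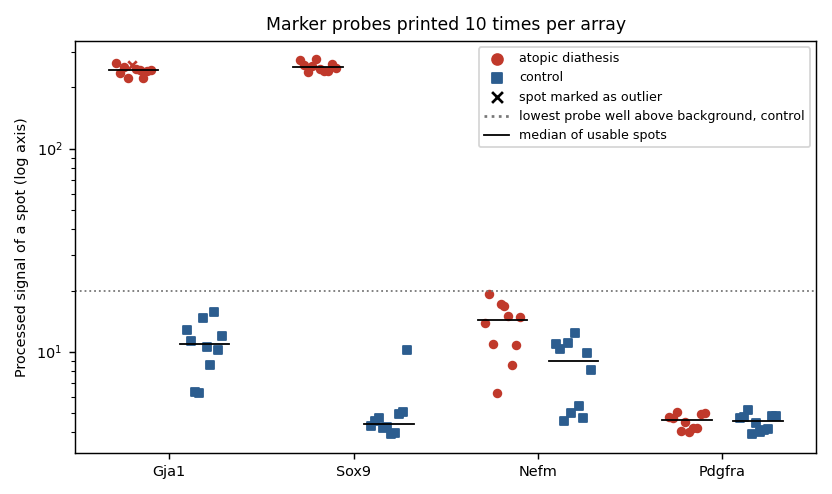
Processed signal of single spots (log axis) of the 4 marker probes printed 10 times, atopic diathesis to the left of control, with a black line at the median of usable spots and a dotted line at the lowest probe well above background on the control array, 19.8. Gja1 and Sox9 spots lie between 222 and 275 in atopic diathesis and below 15.8 or 10.2 in control, while Nefm and Pdgfra spots lie below the dotted line on both arrays.

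Myelin genes were mostly detected, with no shared direction. Of 9 genes of myelinating oligodendrocytes, 8 were detected in atopic diathesis and 5 in control, and Mog, a myelin surface glycoprotein, was well above background in neither (4.18 in atopic diathesis and 4.08 in control). Cldn11, the tight junction protein of myelin, read 302 in atopic diathesis and 5.20 in control, at least 16.5-fold higher. Cnp, a myelin phosphodiesterase, read 216 in atopic diathesis and 68.2 in control, a log2 difference of 1.78 ± 0.29. Mag, a myelin adhesion protein, read 48.9 in atopic diathesis and 14.9 in control, at least 2.68-fold higher. Ugt8a, the enzyme that makes the myelin lipid galactosylceramide, read 47.0 in atopic diathesis and 5.05 in control, at least 2.57-fold higher. The signals of Mag and Ugt8a were dim on both arrays. Ermn, a cytoskeletal protein of the outer myelin, went the other way, with 49.9 in atopic diathesis and 116 in control (-1.10 ± 0.57). That difference was -0.53 with no background correction and -0.66 with normexp correction, inside 2-fold.

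Trf, which encodes the iron carrier transferrin, was the one myelin-list gene whose probes all agreed. Its probes read 7312 and 6681 in atopic diathesis against 4494 and 4679 in control, with log2 differences of 0.82 ± 0.15 and 0.63 ± 0.15. Both were above 0 by more than the spot error and inside 2-fold. When scaled by the 75th percentile over all probes they were 0.24 and 0.047, the second within the spot error. The median over the 5 measured probes of the list was 0.64, the same with and without Trf.

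Mbp and Mobp, both encoding basic proteins of compact myelin, gave opposite readings from different probes. One Mbp probe read 146 in atopic diathesis and 101 in control (0.64 ± 0.29), or 0.061 when scaled by the 75th percentile over all probes. A second read 15.8 in atopic diathesis and 267 in control, at least 12.4-fold lower, and the last was detected on neither array, with 11.9 in atopic diathesis and 5.06 in control. For Mobp, the first probe read 87.1 in atopic diathesis and 5.42 in control, at least 4.77-fold higher. Another read 6.91 in atopic diathesis and 96.6 in control, at least 4.49-fold lower, and the remaining one was detected on neither array, with 4.75 in atopic diathesis and 4.62 in control. Neither gene therefore has a single direction on these arrays. The Mobp probes lie in 1 gene but are annotated in the files to different transcripts: variant 3 for the higher probe (chr9:120077006-120077065) and the undetected one (chr9:120078400-120078459), and variant 1 for the lower probe (chr9:120085150-120085209; mm9, plus strand). They are shown with Cldn11 (chr3:31062922-31062981, plus), 30 bases of each, with AATAAA in capitals.
Mobp higher probe: acccttcaccttcctcaactccaagcgtga
Mobp undetected probe: gcccagatcttactccgtatctaaggttga
Mobp lower probe: taacaagaactcAATAAAtacttgctgact
Cldn11: atatgcAATAAAtaatagtacgaagattat

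None of the 4 listed genes of the wider lineage and of precursor cells was detected. Olig1 and Olig2, transcription factors present throughout the lineage, read 8.49 and 17.6 in atopic diathesis against 4.35 and 12.1 in control. Pdgfra and Cspg4, the growth factor receptor and proteoglycan of precursor cells, read 4.54 and 10.7 in atopic diathesis against 4.47 and 8.21 in control. All 4 genes have 1 probe each, and none was well above background on either array.

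Of the neuron genes, Eno2 alone stood out. It encodes neuron-specific enolase, a glycolytic enzyme, and read 1117 in atopic diathesis against 59.6 in control, 20.3-fold higher with a log2 difference of 4.34 ± 0.29. With normexp correction the difference was 3.39, and with no background correction 3.22. Of 8 neuron genes with a probe, 3 were detected, and the same number on each array. Chat, the enzyme that makes acetylcholine in motor neurons, read 49.2 in atopic diathesis and 45.8 in control (0.22 ± 0.57). Snap25, a synaptic vesicle fusion protein, read 84015 in atopic diathesis and 82155 in control (0.15 ± 0.15). Syt1, the calcium sensor of synaptic vesicles, Rbfox3, the splicing factor known as NeuN, the tubulin gene Tubb3 and the neurofilament genes Nefl and Nefm were detected on neither array, with 7 probes at 4.01 to 12.7 in atopic diathesis and 3.91 to 7.67 in control. The signs of the Chat and Snap25 differences changed in 3 of 8 and 1 of 8 alternatives.

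The Snap25 and Chat probes hold simple repeats, which is why their sequences are shown beside that of Eno2. Capitals mark 10 copies of CA in the Snap25 probe (chr2:136607709-136607768, plus), a GAAA repeat in the Chat probe (chr14:33221421-33221480, minus) and the polyadenylation signal variant ATTAAA in the Eno2 probe (chr6:124710388-124710447, minus).
Snap25: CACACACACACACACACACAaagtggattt
Chat: gctattcAGAAAGAAAGAAAGAAAGAAAGA
Eno2: aatgaccaccaccATTAAAgtctgaatcac
The Snap25 probe shares a stretch of 20 bases with probes of 21 other gene names, and the Chat probe with 2. On the whole array 71 probes hold 10 copies in a row of CA (22 probes, 0.0395% of all) or of its complement TG (49 probes, 0.088%). All 71 were detected on both arrays, against 20.2% of all probes, and 0 of 71 differed by 2-fold. GAAA repeated 4 times occurs in 6 probes, all 6 detected on both arrays. The readings of Snap25 and Chat therefore cannot be assigned to these genes alone. The Eno2 probe shares no such stretch with another gene.

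**Figure D3:**
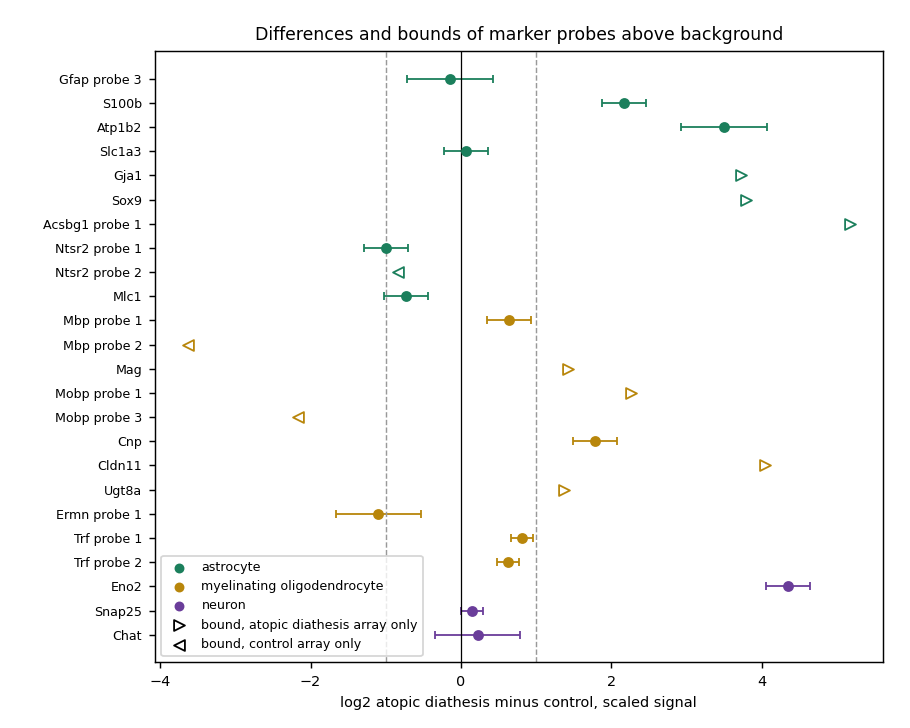
Log2 difference of scaled signal, atopic diathesis minus control, for the 24 marker probes detected on at least 1 array: filled points with 95% spot-error bars where measured on both, open triangles for bounds where detected on 1, dashed lines at 2-fold. Acsbg1, Eno2, Cldn11, Sox9, Gja1 and Atp1b2 lie farthest to the right, and Mbp probe 2 and Mobp probe 3 farthest to the left.

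Map2, a microtubule-associated protein of dendrites, has 3 probes under the name Mtap2. One read 21.5 in atopic diathesis and 42.7 in control, detected on both arrays with a log2 difference of -0.87, inside 2-fold. The other probes were detected on neither, one at 12.1 in atopic diathesis and 14.5 in control, the other at 4.75 in atopic diathesis and 5.17 in control. With 2 of these probes added through their RefSeq accession, 21 genes were detected in atopic diathesis and 15 in control.

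Measured probes past 2-fold were 4 higher in atopic diathesis (S100b, Atp1b2, Cnp and Eno2) and 1 lower (Ermn) among 14. Of all measured probes, 18.8% were higher by 2-fold or more (2117 probes) and 15% lower (1684 probes). With the 75th percentile taken over all probes, every difference moved down by the same amount and the median measured probe lay at -0.50. The members then split into 4 higher and 3 lower, and all probes into 1243 and 3161. Quantile normalization gave 4 higher and 2 lower members, and 1671 higher and 2324 lower probes, with the median at -0.16. S100b, Atp1b2, Cnp and Eno2 stayed past 2-fold in 8 of 8 alternatives, which are not 8 separate checks. Of the 7 probes detected in atopic diathesis alone, 5 had a bound of at least 4-fold, against 33.6% of all such probes, and of the 3 detected in control alone 2 did, against 26.5%. The bounds depend on the background treatment: with normexp correction, Acsbg1 was at least 9.28-fold higher, Cldn11 4.85-fold, Sox9 4.13-fold and Gja1 3.92-fold, and Mbp was at least 3.85-fold and Mobp at least 1.91-fold lower on their lower probes. The higher Mobp probe was then at least 2.11-fold higher. With no background correction the bounds were 7.55-fold for Acsbg1, 4.04-fold for Cldn11, 3.48-fold for Sox9, 3.31-fold for Gja1 and 1.87-fold for the higher Mobp probe. The lower probes of Mbp and Mobp were then at least 3.22-fold and 1.65-fold lower.

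Of 11 member genes with more than 1 probe, 5 had all probes in the same class of detection, and 4 of those were well above background on neither array by any probe. In the other 6 the probes differed: Acsbg1, Ermn, Gfap, Mbp, Mobp and Ntsr2. The hexamers AATAAA or ATTAAA were present in 7 of 24 member probes detected on at least 1 array (29.2%) and in 4 of 28 detected on neither (14.3%). Over all 52 member probes the share was 21.2%. It was 13.7% of all probes and 17.3% of those with a RefSeq mRNA accession, counted on the printed strand only. GC content ran from 30% to 53.3% in the detected member probes and from 15% to 55% in the others. The second Ermn probe, detected on neither array, shares a stretch of 20 bases with probes of 42 other gene names.

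Summed over a list's probes, scaled signals were higher in atopic diathesis for astrocyte, myelin and neuron genes. The exception was the neuron list under 1 other scaling, and the sizes depended on single genes and on the processing. Over all probes of the array the log2 ratio of sums was 0.10. The astrocyte list summed to 3392 in atopic diathesis and 1624 in control, a log2 ratio of 1.06, and without Slc1a3 to 2698 in atopic diathesis and 962 in control (1.49). The myelin list summed to 15561 in atopic diathesis and 9489 in control (0.71), and without Trf to 999.7 in atopic diathesis and 675 in control (0.57). The neuron list summed to 88694 in atopic diathesis and 79088 in control (0.17), and without Snap25 to 1267 in atopic diathesis and 139 in control (3.19). On both arrays most of the neuron sum came from the Snap25 probe with the CA repeat. Without it, most of the atopic diathesis sum came from Eno2, with a signal of 1117 before scaling. With the percentile over all probes, the neuron sum was lower in atopic diathesis, at -0.42, while the astrocyte sum (0.48) and the myelin sum (0.13) remained higher.

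Further markers of the same cells were taken from lists of other genes, to be read beside the 34.8% of all gene names detected in atopic diathesis and the 30.9% in control. Of 24 further astrocyte genes, 13 were detected in atopic diathesis and 9 in control. Sparcl1, a matricellular protein of astrocytes, read 8078 in atopic diathesis and 1028 in control, a log2 difference of 3.09. Clu, encoding clusterin, read 127 in atopic diathesis and 34.1 in control (2.01). The GABA transporter gene Slc6a11 read 261 in atopic diathesis and 5.04 in control, at least 14.3-fold higher. On the other side, Ttyh1, which encodes a membrane protein of the tweety family, read 73.6 in atopic diathesis and 311 in control (-1.96) on one probe, while another of its probes was detected in atopic diathesis alone. The potassium channel gene Kcnj10 read 127 in atopic diathesis and 231 in control (-0.75). Over the 9 measured probes 2 were at least 2-fold higher and 2 lower, with a median of 0.028. Both lower probes were of Ttyh1 (-1.96 and -1.33), while the higher ones were of Sparcl1 and Clu.

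Of 24 further oligodendrocyte genes, 5 were detected on each array and 18 on neither. Bcas1, a marker of oligodendrocytes that begin to myelinate, read 511 in atopic diathesis and 97.7 in control (2.50). The connexin gene Gjc3 read 26.9 in atopic diathesis and 382 in control (-3.71), and Nkx2-2, a lineage transcription factor, 12.4 in atopic diathesis and 148 in control, at least 6.87-fold lower. A second Nkx2-2 probe was detected on neither array, at 4.01 in atopic diathesis and 3.96 in control. Evi2a read 432 in atopic diathesis and 291 in control (0.68). Of 9 further precursor genes 2 were detected on each array, Matn4 (0.49) and Xylt1 (0.40). Of 30 further neuron genes, 5 were detected in atopic diathesis, 4 in control and 22 on neither array. Celf4, an RNA-binding protein, read 473 in atopic diathesis and 6.39 in control on one probe, at least 25.9-fold higher. Its other probes were detected on neither array, at 9.60 and 20.6 in atopic diathesis against 4.32 and 17.4 in control. Elavl4, another RNA-binding protein, read 535 in atopic diathesis and 512 in control (0.18). Gad2, Dlg4 and Syp were also detected in atopic diathesis alone, at least 5.28-fold, 1.98-fold and 1.43-fold higher. Pvalb, Gap43 and Slc32a1 were detected in control alone, Pvalb at 4.52 in atopic diathesis and 67.6 in control, at least 3.14-fold lower. Gap43 was at least 1.46-fold and Slc32a1 at least 1.21-fold lower. The detected signals of Dlg4, Syp, Gap43 and Slc32a1 lay near the lowest detected one. These 6 genes were chosen after their values were seen. Matn4, Elavl4, Pvalb and Slc32a1 also had a probe detected on neither array.

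Microglia genes were at like signals in both samples. All 20 microglia genes were detected on both arrays, and 0 of their 27 measured probes differed by 2-fold, with a median of -0.029. The largest differences were those of the purinergic receptor gene P2ry13 (-0.64), Aif1 (0.63), Selplg (-0.57) and Csf1r (-0.55). None of 6 ependymal, 6 perivascular macrophage, 13 other leukocyte and 4 red cell genes was detected. Among 12 endothelial genes 4 were detected on each array, with Pecam1 at 127 in atopic diathesis and 5.64 in control, at least 6.96-fold higher, and Flt1 at 5.07 in atopic diathesis and 328 in control, at least 15.3-fold lower. Other probes of Flt1, Kdr and Vwf were detected on neither array, those of Flt1 at 4.06 and 4.28 in atopic diathesis against 3.93 and 4.29 in control. The log2 differences were -0.95 for Ly6c1, -0.18 for Kdr and 0.59 for Vwf. A second Ly6c1 probe went the other way, at 51.0 in atopic diathesis and 11.1 in control, detected in atopic diathesis alone and at least 2.79-fold higher, so Ly6c1 had no single direction. Of 8 mural cell genes Tagln was detected (0.38). Of 6 fibroblast genes, 2 were detected in atopic diathesis and 1, Igfbp2 (-0.30), in both. The Schwann cell list had 1 gene of 6 detected, Pmp22, with log2 differences of -1.98 on one probe and 0.050 on the other.

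**Figure D4:**
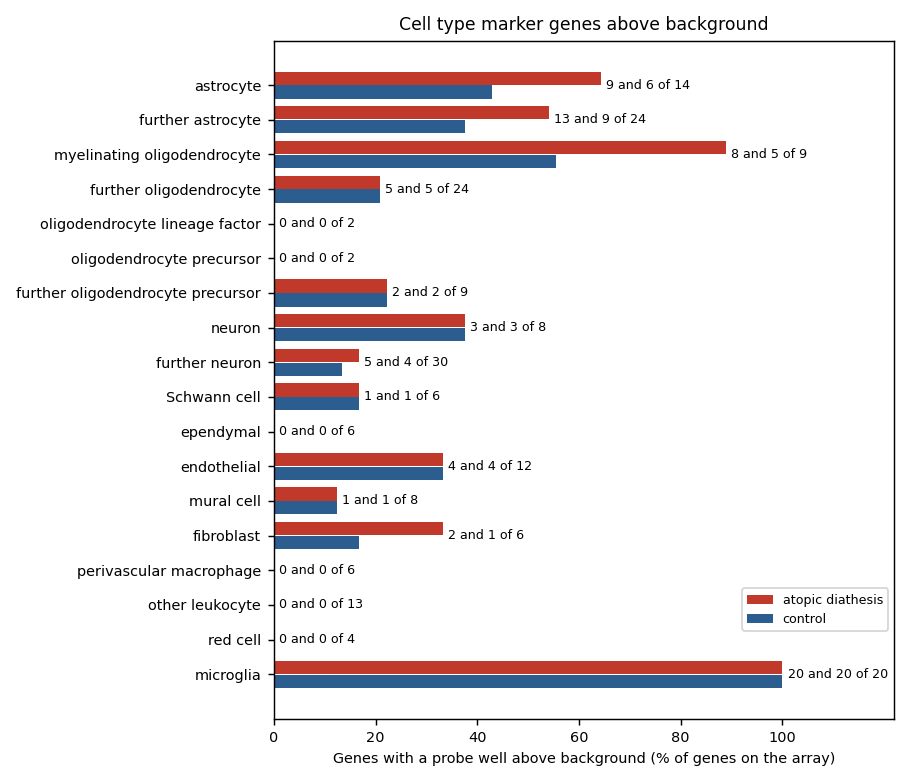
Share of the genes of each marker list with a probe well above background (percent of genes on the array), atopic diathesis above control, with the counts beside the bars in that order. Microglia genes reach 20 of 20 on both arrays, the astrocyte list 9 and 6 of 14, the myelin list 8 and 5 of 9, and 6 lists have no detected gene.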

How the data were processed

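The deposited scanner files give fluorescence intensity per spot on a linear scale, background-subtracted by the extraction software. Its version is 10.7.1.1 per the file headers and 9.5.1.1 per the submitters' processing notes. The deposited series table, also intensity, has a median of 6.64 in both columns and equal sorted values (100% of ranks within 0.01 on the log2 scale). How it was made was not stated in the labels. Detection is the software's deposited mark for spots well above background, an entry of 0 or 1.

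Control spots (3671) and outlier spots (122 in atopic diathesis, 136 in control) were left out, and log2 spot values of a probe averaged over 59305 spots. No spot was saturated. A probe printed 10 times was detected where more of its usable spots were marked than not. A bound divides the scaled bright signal by the lowest detected signal of the other array, or by the dim probe's own signal where that is higher. Gene names are those of the files. Python 3.11.15, pandas 2.3.3, R 4.3.3 and limma 3.58.1 (normexp, offset 50) were used, and the steps were tested on simulated data. The members and lists were chosen with earlier results of these data known. All members are named. Of each further list the 4 largest differences and the highest bound per direction of at least 4-fold are named, except 1 gene that is not reported here. Sequences were to be limited to coding stretches, but no coding annotation was used here, so 30 bases per probe are shown. Alternatives were other scalings, background treatments, filters, probe rules and the series table.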

Additional observations from a re-analysis of the deposited data

How the results depend on the processing

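With 1 array per group, leaving out a replicate was not possible. No paired analysis was possible because each group has 1 sample. Of 134 values for the lists, 91 moved by less than the spot error (1 SD) or by under 1.5 times for a count. The 134 are not separate checks, since the series table nearly repeats quantile normalization. Among the list medians and ratios of sums, the astrocyte ratio alone was past 2-fold in the main setting (1.06), and it did not change sign. With outlier spots kept it was again 1.06. Under every other scaling or background treatment and with the series table it fell inside 2-fold, at 0.48 to 0.95. Smaller values did change sign, such as the medians and ratios of the neuron list and of all members with the 75th percentile of all probes. Detected genes numbered 32 in atopic diathesis and 26 in control where a signal significantly above background sufficed, and 32 and 22 above the 99th percentile of the 308 negative control spots. The shares of all gene names under these 2 rules were not counted. Probes at least 2-fold lower, 1 in the main setting, were 3 with the 75th percentile of all probes, 2 with the median scaling, quantile normalization, no scaling or the series table, 0 with normexp or no background correction, and 3 with probes detected on at least 1 array or with no filter. Probes at least 2-fold higher were 11 and 16 under these 2 filters, for which the shares of all probes were not counted. With the 75th percentile of all probes the medians were -0.62 (astrocyte), 0.061 (myelin), -0.36 (neuron) and -0.16 (all members), and the ratios of sums 0.48, 0.13, -0.42 and -0.33. The astrocyte median was -0.29 with quantile normalization and with the series table, 1.12 with probes detected on at least 1 array and 0.17 with no filter. The median of all members was 0.18 with quantile normalization and the series table, 0.73 with probes detected on at least 1 array, 0.22 with 1 value per gene (mean or brightest probe) and 0.22 without Snap25 and Trf. The neuron median without Snap25 was 2.28. The astrocyte ratio of sums was 0.66 with normexp, 0.62 with no background correction and 1.49 without Slc1a3, the neuron ratio 3.19 without Snap25, and the ratio of all members 1.21 without Snap25 and Trf. Bounds of at least 4-fold were 3 higher and 0 lower with normexp, and 2 higher and 0 lower with no background correction. The settings that leave out genes were chosen after seeing the data, and the cause of the other shifts was not tested. Signals near the lowest detected one limit what can be said of Mag, Ugt8a and Ntsr2.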
